A study of Mus musculus with 2 samples.

Results

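Wnt-high venous endothelium (VE) is the class of endothelial cells, in the deposited classification, that joined a venous score to high expression of Wnt target genes. Its members were all cells to which the authors' classifier gave that name, 1074 of 8405 cells, with 508 of 4451 in the wild-type and 566 of 3954 in the SP3-null library. The cells came from dorsal aorta regions of mouse embryos at embryonic day 10.5, and their strain was C57Bl6/J x B6129SF1/J. Wild-type and SP3-null (Sp3-/-, labelled SP3KO) embryos were the offspring of Sp3+/- parents, and nothing else differed by label between the groups. Cells were sorted as Ter119-, CD41 low or negative, CD31+, CD144+ and ESAM+, and were pooled by genotype before the sort. Each group was 1 library, and the sources used here do not give the number of embryos in it. Genotype, pool of embryos and library therefore cannot be told apart, no difference below has a replicate check, and no p-value is given. Intervals are 95% intervals that cover counting error only.

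Canonical Wnt ligands bind Frizzled receptors with LRP5 or LRP6 and stabilise β-catenin, which enters the nucleus and joins the DNA-binding proteins LEF1 and TCF7. Axin2 and Nkd1 encode feedback inhibitors that β-catenin itself induces, so their transcripts are used as a readout of the pathway. In endothelium the pathway is best known for the vessels of the central nervous system, where it promotes vessel ingrowth and barrier genes such as the glucose transporter Slc2a1. The nuclear receptor COUP-TFII, encoded by Nr2f2, holds endothelium in a venous state by restraining Notch signalling. SP3 is a zinc finger factor that binds GC boxes.

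Promoters of genes on which the description turns are shown because the class is named for a pathway with a known DNA motif and the groups differ in a factor with another. Sequences are those of RefSeq on GRCm38.p6, from 250 bases before to 50 after an annotated start, written 5′ to 3′ on the strand of the gene. Capitals mark CTTTGAT, a TCF/LEF motif, and GGGCGG, the core of a GC box, each searched on both strands with overlapping matches counted. Where a gene had several annotated starts, the start with the most matches to CTTTGAT, and then to GGGCGG, was printed. Stra6 (chr9:58129099-58129398, plus strand), the retinol-binding protein receptor, and Tnfrsf19 (chr14:61037938-61038237, minus strand), a receptor of the tumor necrosis factor family, were among the genes most raised in the class, as was the forkhead factor Foxf2 (chr13:31625566-31625865, plus strand). Nr2f2 (chr7:70366697-70366996, minus strand) is its venous marker. Vill (chr9:119052528-119052827, plus strand), which encodes a villin-like actin-binding protein, had the highest ratio of SP3-null to wild-type. The promoters of Nkd1, Lef1 and Axin2, which are not printed, held 0 matches to CTTTGAT.
Stra6: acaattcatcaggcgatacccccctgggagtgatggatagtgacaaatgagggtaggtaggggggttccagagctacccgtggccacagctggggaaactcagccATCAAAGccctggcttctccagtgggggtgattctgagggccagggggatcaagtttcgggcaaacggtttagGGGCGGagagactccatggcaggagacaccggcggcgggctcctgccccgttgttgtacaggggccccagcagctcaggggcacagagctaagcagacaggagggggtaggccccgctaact
Tnfrsf19: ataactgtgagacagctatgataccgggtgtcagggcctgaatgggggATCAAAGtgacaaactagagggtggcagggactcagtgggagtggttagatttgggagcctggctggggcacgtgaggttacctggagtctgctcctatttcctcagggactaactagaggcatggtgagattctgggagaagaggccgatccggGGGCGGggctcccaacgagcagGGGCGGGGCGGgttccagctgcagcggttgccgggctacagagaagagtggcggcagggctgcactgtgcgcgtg
Foxf2: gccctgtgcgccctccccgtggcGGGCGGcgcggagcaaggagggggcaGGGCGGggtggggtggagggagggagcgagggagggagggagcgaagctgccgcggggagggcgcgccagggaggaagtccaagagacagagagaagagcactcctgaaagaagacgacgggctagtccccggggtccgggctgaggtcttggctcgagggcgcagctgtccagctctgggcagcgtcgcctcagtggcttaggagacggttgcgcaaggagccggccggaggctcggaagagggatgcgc
Nr2f2: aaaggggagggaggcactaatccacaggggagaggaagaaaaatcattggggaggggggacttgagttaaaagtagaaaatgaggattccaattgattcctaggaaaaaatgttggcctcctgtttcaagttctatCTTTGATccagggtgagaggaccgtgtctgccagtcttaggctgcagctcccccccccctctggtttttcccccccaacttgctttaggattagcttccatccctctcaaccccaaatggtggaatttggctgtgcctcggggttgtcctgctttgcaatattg
Vill: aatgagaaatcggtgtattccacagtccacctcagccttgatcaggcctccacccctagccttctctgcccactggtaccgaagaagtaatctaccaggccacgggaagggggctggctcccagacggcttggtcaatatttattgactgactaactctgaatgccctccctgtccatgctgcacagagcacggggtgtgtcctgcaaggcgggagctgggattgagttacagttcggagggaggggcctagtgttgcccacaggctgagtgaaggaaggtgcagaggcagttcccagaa
Stra6 held 1 TCF/LEF motif, at position -145 from that start, and 1 GC box at -72. Nr2f2 held 1 TCF/LEF motif, at position -114, and 0 GC boxes. Tnfrsf19 held 1 TCF/LEF motif and 3 GC boxes, Foxf2 2 GC boxes, and Vill neither motif. For Stra6 the sequence is the only 1 of 4 annotated starts with CTTTGAT, and for Tnfrsf19 the only 1 of 2 with either motif. Over all promoters in the RefSeq table, 3.73% held CTTTGAT and 35.7% held GGGCGG. Counted by gene with any start, as the choice of starts here requires, these shares were 4.29% and 38.2%. A match is a description of the letters and does not show binding.

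Levels of the markers were described over the classes. The authors assigned the classes from the same expression values, so the ranks below are descriptions and do not check the labels. Nkd1 stood at 43.8 CPM (UMIs of the gene scaled to a common total of UMIs in the class, 39.5 to 48.5) in the wild-type and 61.5 CPM (57.0 to 66.3) in the SP3-null library. Wnt-high arterial endothelium (AE) was higher, at 90.2 and 129.9 CPM, and the other 7 classes lay between 1.66 and 7.24 CPM in the wild-type and between 2.24 and 10.1 CPM in the SP3-null library. Wnt-high VE thus ranked second of 9 classes for Nkd1 in both libraries, outside the intervals of all others. Lef1 had the same rank, at 134 and 123 CPM against 172 and 182 CPM in Wnt-high AE and 52.5 and 52.3 CPM in Wnt-low VE. Tcf7, the partner of β-catenin that is itself a target, stood at 36.6 CPM in both libraries, below Wnt-high AE at 46.5 and 43.3 CPM, with intervals that overlapped in the SP3-null library. Axin2 stood at 14.5 and 17.6 CPM, and here the intervals overlapped those of Wnt-high AE at 18.7 and 19.2 CPM.

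The venous side of the name was carried by fewer genes. Nr2f2 stood at 102 CPM in both libraries, under Wnt-low VE at 111 and 118 CPM, with intervals that overlapped in the wild-type, and above Wnt-high AE at 50.2 and 39.0 CPM. The class that the authors call other endothelium was highest for Nr2f2, at 178 and 164 CPM. Nrp2, a co-receptor for VEGF-C and semaphorins, was higher than in Wnt-high AE by 0.68 and 0.80 on the log2 scale, in the wild-type and the SP3-null library. The other genes of the venous score hardly separated these classes. Ephb4, the receptor of venous endothelium for the arterial ligand ephrin-B2, had log2 ratios to Wnt-high AE of 0.03 and 0.00, Flt4, the receptor for VEGF-C, -0.06 and -0.11, and Emcn, an endothelial sialomucin, -0.11 and -0.18. Efnb2, which encodes ephrin-B2, was at 49.0 and 38.9 CPM in the class, under 69.1 and 69.5 CPM in Wnt-low VE and 114 and 110 CPM in Wnt-high AE. Over 11 measured genes of the arterial score 4 were higher and 5 lower than in Wnt-low VE in both libraries. Of all genes 45.6% were higher and 25.2% lower. The Notch ligand gene Jag1 was higher by 2.81 and 2.55 on the log2 scale. These genes were used to form the classes, so their contrasts are descriptions and no test.

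**Figure D1:**
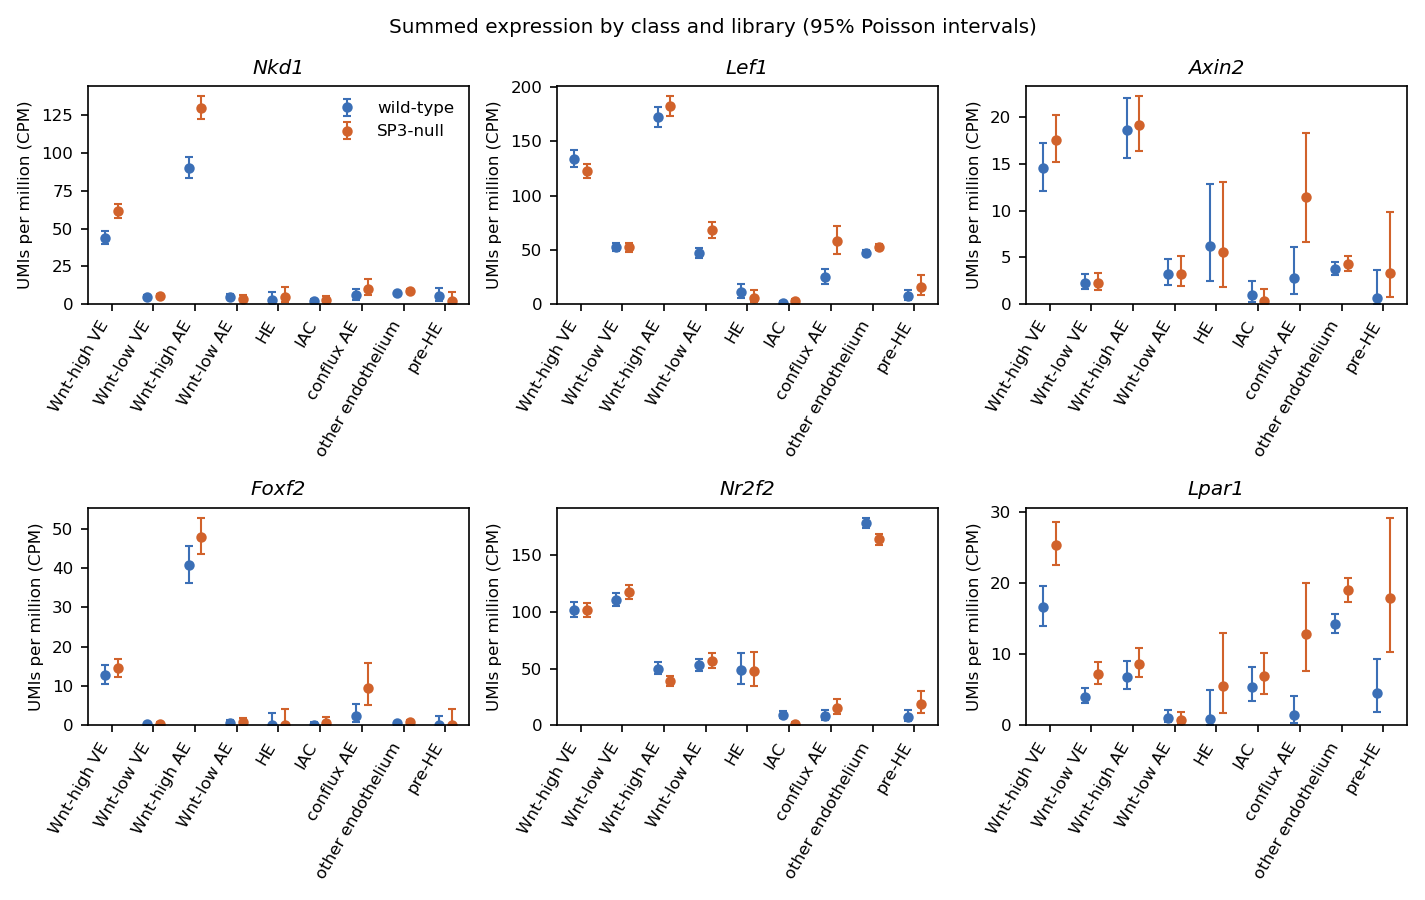
Level of 6 genes in each class and library, in CPM of the summed class (vertical axis) with 95% Poisson intervals. Each point is 1 library and blue and orange stand for wild-type and SP3-null. Nkd1, Lef1, Axin2 and Foxf2 were highest in Wnt-high AE and second highest in Wnt-high VE, whereas Nr2f2 in Wnt-high VE was near its level in Wnt-low VE and Lpar1 was highest in Wnt-high VE.

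Cells of Wnt-high VE and Wnt-high AE overlapped in an index of arterial and venous genes. The index was formed from cells thinned to 5000 UMIs as the mean log level of the arterial score genes minus that of the venous score genes. Of the 425 wild-type and 514 SP3-null cells of the class deep enough for thinning, 36.7% and 35.2% lay on the arterial side of the midpoint between the medians of Wnt-high VE and Wnt-high AE. Conversely, 35.8% and 34.5% of Wnt-high AE cells lay on the venous side. Within 0.1 of the midpoint lay 22.1% and 25.5% of the class. Thinned cells of the class held a median of 3 and 2 UMIs of arterial score genes and 5 and 4 UMIs of venous score genes. With so few UMIs counting error by itself spreads cells over the midpoint, and whether the range is continuous was not tested. This index was rebuilt here and is not the authors' score.

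Single cells carried few UMIs of the Wnt genes. After thinning, 18.8% of wild-type cells of the class (15.2% to 22.9%) and 21.4% of SP3-null cells (17.9% to 25.2%) held a UMI of Nkd1, against 1.24% and 2.38% in Wnt-low VE and 1.59% and 1.94% in intra-aortic cluster cells, blood-forming cells taken as the background. Without thinning the shares in the class were 38.2% and 49.8%, at median depths of 14475.5 and 19230 UMIs per cell. Lef1 was found in 46.6% and 44.4% of the thinned cells, against 19.1% and 18.7% in Wnt-low VE. At least 1 of Foxf2, Foxq1, Stra6, Zic2, Nkd1 and Axin2 was found in 46.4% and 52.3% of the class, in 4.41% and 5.10% of Wnt-low VE and in 76.3% and 79.9% of Wnt-high AE. These genes were chosen for their levels in the class, so that the order of the shares is a description.

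The rest of the profile was endothelial. Summed markers of other cell types were low in the class, with a sum over 8 macrophage genes of 0.346 and 0.449 CPM, over 7 epithelial genes of 0.807 and 0.718 CPM and over 11 mesenchyme and mural genes of 5.65 and 5.75 CPM. Csf1r and C1qa in the wild-type and Fcgr1 and Lyz2 in both libraries were at 0, as were Pdgfrb, Col1a1, Krt8 and Cdh1 in both. Globins and other erythroid genes summed to 45.1 and 48.8 CPM and lay between 33.6 and 130.1 CPM over the classes of the wild-type library. Xist stood at 433 and 414 CPM and the sum of 4 Y-linked genes at 56.8 and 59.3 CPM. Median mitochondrial shares were 5.88% and 4.63%, and the class of the SP3-null library was the deeper.

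To describe what the class shared beyond the markers, it was set against Wnt-low VE within each library. Of 8903 genes with at least 100 UMIs over both classes in each library, 99 were at least 2-fold higher in Wnt-high VE in both libraries (1.11%) and 47 at least 2-fold lower (0.528%). Ranked by the smaller of the ratios in the 2 libraries, Foxf2 came first, from 0.266 to 12.8 CPM in the wild-type and from 0.339 to 14.5 CPM in the SP3-null library, with log2 ratios of 5.59 (4.19 to 7.49) and 5.42 (4.04 to 7.31). Foxf2 and Foxq1 encode forkhead factors known from vessels of the brain. Foxq1 stood at 42.4 and 56.5 CPM against 1.60 and 2.80 CPM, and Stra6 at 14.1 and 16.2 CPM against 0.399 and 0.339 CPM, with log2 ratios of 5.14 and 5.57.

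Zic2 and Zic5, neighbouring zinc finger genes of chromosome 14, stood at 14.5 and 13.6 CPM and at 12.8 and 10.7 CPM, with Wnt-low VE between 0.594 and 1.26 CPM. Zic5 was as high as in Wnt-high AE, at 10.9 and 10.5 CPM there, with overlapping intervals. A list of 10 neural markers was lower in the class, with a sum of 162 and 152 CPM against 198 and 176 CPM in Wnt-low VE and rank 8 of the 9 classes in both libraries. Most of the sum came from Nes, an intermediate filament gene that embryonic endothelium also expresses, at 132 and 129 CPM. Stmn2 stood at 26.9 and 16.4 CPM, lower than in Wnt-low VE at 65.8 and 46.8 CPM, and Sox2 and Sox1 in the wild-type and Pax3 and Dcx in the SP3-null library were at 0. Car2, a carbonic anhydrase, had log2 ratios of 3.38 and 3.57, and Tnfrsf19, a target of Wnt signalling, of 3.04 and 3.15. Tdrp, Gxylt2, the forkhead gene Foxl2 and Tpbg, which encodes a membrane inhibitor of Wnt signalling, completed the highest 12, with ratios between 2.78 and 4.05. Foxl2 was the least even of these, at 4.05 in the wild-type and 2.82 in the SP3-null library.

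Of 20 Wnt target genes, 10 were measured, and of these 6 were higher than in Wnt-low VE in both libraries and 3 lower, where 45.6% and 25.2% of all genes were. At least 2-fold higher in both were 5, Axin2, Nkd1, Lef1, Tcf7 and Tnfrsf19, where 1.11% of all genes were. The classes are named for their Wnt target expression and were assigned from the same values. The counts and median of the Wnt targets are therefore a description and no test. The list median was 0.94 and 1.26, beside 0.06 and 0.04 over all genes. Ccnd1 (cyclin D1) and Myc, targets of many pathways, were lower, at -0.35 and -0.50 and at -0.81 and -1.04. Of the barrier list, 11 of 13 measured genes were higher in both libraries and 6 at least 2-fold, where 45.6% and 1.11% of all genes were. Slc7a5 and Slc3a2, the chains of the large neutral amino acid transporter, had ratios of 2.65 and 2.35 and of 1.09 and 1.37, and Slc2a1 0.63 and 0.55. Plvap, the diaphragm protein of leaky vessels, was lower, at -0.33 and -0.57.

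Among receptors, the Frizzled gene Fzd10 stood at 76.3 and 66.7 CPM in the class and was higher than in Wnt-low VE by 1.55 and 1.21 on the log2 scale. Tspan12, a co-activator of Frizzled 4, had ratios of 0.95 and 0.72, whereas Fzd4 itself was lower, at -0.58 and -0.45. Lrp5, Lrp6, Adgra2 (GPR124), Ryk, Ctnnb1 (β-catenin) and Apc, the scaffold of its destruction complex, had ratios between -0.12 and 0.18. The median over 18 measured receptors and regulators was 0.16 and -0.03, nearer to that of all genes than the median of the targets.

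The genes with the lowest ratios to Wnt-low VE were of several kinds. 8430408G22Rik, a gene of the arterial score that the files do not name further, stood at 2.998 and 4.13 CPM against 29.5 and 32.0 CPM in Wnt-low VE. Kcne3, a potassium channel subunit known from tip cells, stood at 16.7 and 21.6 CPM against 107 and 127 CPM, with ratios of -2.67 (-2.93 to -2.43) and -2.56 (-2.76 to -2.36). Plau (urokinase), Madcam1 (a vascular addressin), Traf3ip2, Dapk2, Hpgd (a prostaglandin-degrading enzyme) and Col15a1 had ratios between -1.90 and -3.23. Of 13 measured tip cell genes 7 were lower and 4 higher in both libraries, where 25.2% and 45.6% of all genes were. Of the glycolysis list, 13 of 14 measured genes were lower than in Wnt-low VE in both libraries and 0 higher, with medians of -0.25 and -0.24.

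Wnt-high VE was next set against Wnt-high AE, which shares the Wnt side of the name. Of 8550 genes, 16 were at least 2-fold higher in both libraries (0.187%) and 172 at least 2-fold lower (2.01%). Phgdh, which starts serine synthesis from glucose, stood at 16.7 and 11.1 CPM against 3.69 and 3.49 CPM, with log2 ratios of 2.18 (1.58 to 2.83) and 1.67 (1.10 to 2.29). Gap43 and Pmp22, known from nerve, stood at 107 and 97.6 CPM against 39.6 and 30.4 CPM, and at 70.8 and 93.1 CPM against 28.5 and 34.8 CPM. Tgm2 (transglutaminase 2), Flrt2, Col23a1, Lck, Ly6h and the nucleotide enzymes Dctd and Dnph1 had ratios between 1.08 and 1.89.

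Only Lpar1, a receptor for lysophosphatidic acid, was at least 2-fold higher than both neighbours in both libraries among the genes measured in both contrasts. It stood at 16.6 and 25.4 CPM, with ratios of 1.28 and 1.55 to Wnt-high AE, and had its highest level of the 9 classes here in both libraries. Other endothelium was next, at 14.3 and 19.0 CPM, with intervals that overlapped in the wild-type. In contrast, 23 genes were at least 2-fold above Wnt-low VE and at least 2-fold below Wnt-high AE, among them Foxf2, Foxq1, Nkd1, Stra6, Slc7a5, Slc3a2 and Tfrc, the transferrin receptor. Igfbp7, a secreted growth factor binding protein, stood at 11.1 CPM in the wild-type, between 1.13 CPM in Wnt-low VE and 163 CPM in Wnt-high AE. In the SP3-null library it stood at 16.3 CPM between 3.48 and 217 CPM.

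**Figure D2:**
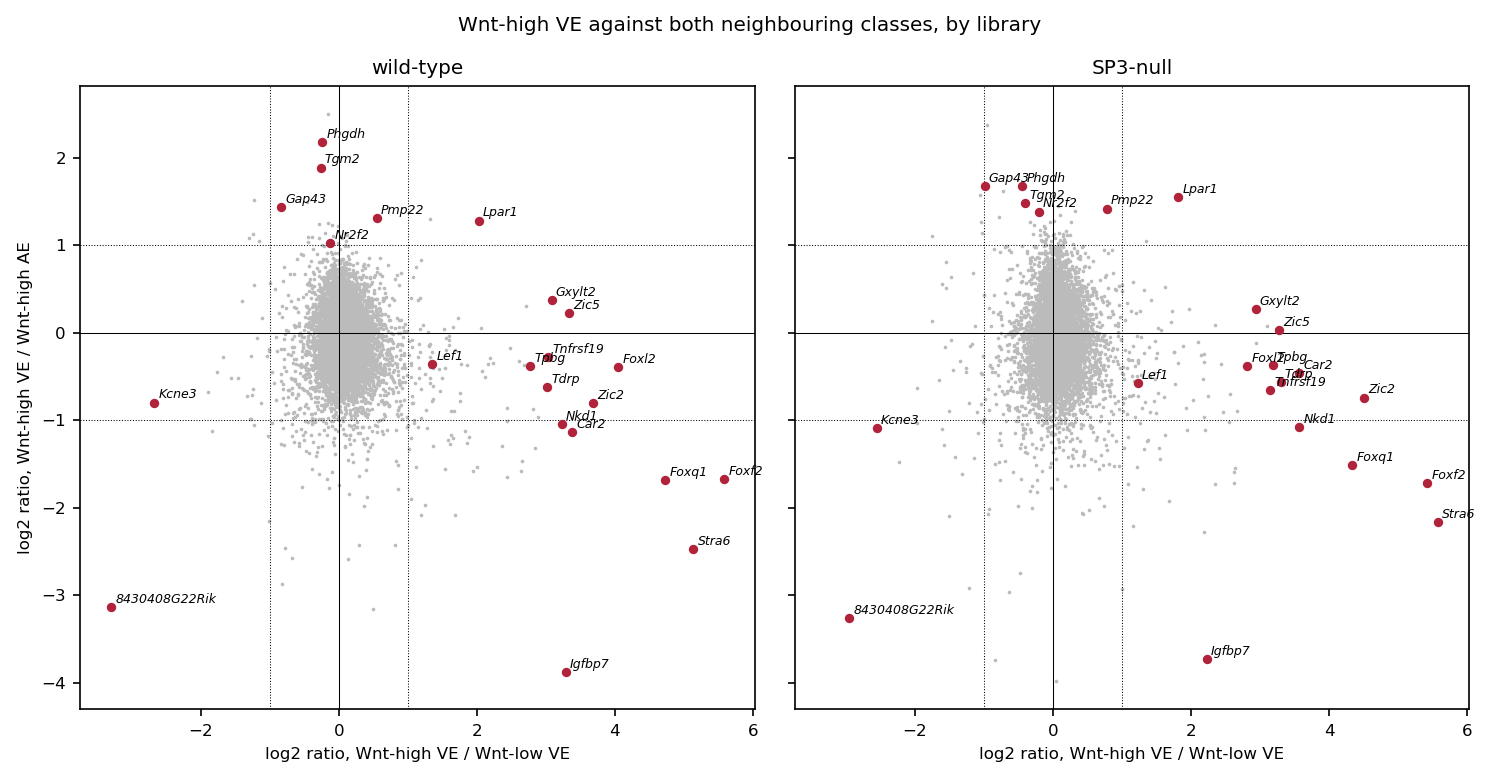
Log2 ratio of Wnt-high VE to Wnt-low VE (horizontal axis) against the log2 ratio of Wnt-high VE to Wnt-high AE (vertical axis), a point per gene, in the wild-type (left) and SP3-null library (right). Genes without a UMI in a class are not drawn and dotted lines mark 2-fold. Foxf2, Foxq1, Stra6 and Igfbp7 lay far to the right and below, above Wnt-low VE and below Wnt-high AE, while Phgdh was higher than in Wnt-high AE and had ratios to Wnt-low VE of -0.24 and -0.45.

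Among the genes with the lowest ratios to Wnt-high AE, Cxcr4, the receptor for CXCL12, was found with 1 UMI in the wild-type and 5 UMIs in the SP3-null library, at 0.115 and 0.449 CPM against 14.5 and 18.8 CPM in Wnt-high AE. It was also low in Wnt-low VE, at 1.26 and 1.44 CPM. Its ligand Cxcl12 stood at 0.577 and 0.359 CPM against 19.8 and 30.8 CPM, and at 0.399 and 0.339 CPM in Wnt-low VE. Mfsd2a, the lipid transporter of mature brain endothelium, stood at 1.38 and 1.44 CPM against 20.3 and 29.7 CPM, and Sox9, Spock2, Apod and Htra3 had ratios between -3.32 and -4.74. Of the 11 measured arterial score genes all were lower in both libraries, where 46% of all genes were. At least 2-fold lower were 5, where 2.01% of all genes were. Outside the score, Gja4 (connexin 37) had ratios of -3.15 and -3.98 and Hey1, a Notch target, -2.58 and -2.97.

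Several lists moved as a whole against Wnt-high AE. All 18 S phase genes and all 18 mitosis genes were higher in the class in both libraries, where 35.3% of all genes were, with medians of 0.42 and 0.77 for S phase and 0.50 and 0.53 for mitosis beside -0.05 and -0.04 over all genes. None of them reached 2-fold in both. The sums over thinned cells showed the same order, with a median of 7 UMIs of S phase genes per cell in the class in both libraries against 5 and 4 in Wnt-high AE. All 14 nucleolus genes and 9 of 10 serine and one-carbon genes were higher as well. Conversely all 11 basement membrane genes were lower, where 46.0% of all genes were, with medians of -0.76 and -0.89, and Col4a1 and Nid2 had ratios of -0.66 and -0.85 and of -1.20 and -1.40. Of 17 barrier genes 16 were lower and 10 at least 2-fold, where 46.0% and 2.01% of all genes were. The exception was Slc16a1, a lactate transporter, at 0.86 and 0.97. The growth lists did not set the class above Wnt-low VE in the same way. Against Wnt-low VE 0 of 14 nucleolus genes were higher and 10 lower in both libraries, and of 10 serine genes 3 and 5. Of 18 S phase genes 5 were higher and 5 lower, and of 18 mitosis genes 9 and 3. Of all genes 45.6% were higher and 25.2% lower.

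Genes whose level over the 18 combinations of class and library followed Nkd1 most closely were Tdrp (Pearson r of 0.96 on log2 levels), Tcf7 (0.95), Foxf2 (0.95), Commd8 (0.94) and Arl1 (0.93). The points share libraries and depth, so that r is a description.

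SP3-null was then compared with wild-type within the class. Sp3 itself stood at 48.9 CPM (44.3 to 53.8) and 37.0 CPM (33.5 to 40.7), a log2 ratio of -0.40 (-0.60 to -0.20), and -0.36 in both neighbouring classes. With each cell thinned to 5000 UMIs the ratio in the class was -0.70. Which part of the gene was deleted is not stated in the sources used here, and UMIs come from 3′ ends, so this level does not check the labels. Sp1 stood at 31.5 and 30.8 CPM, Maz, another zinc finger factor for GC-rich sites, at 50.3 and 49.4 CPM, and Sp4 at 6.92 and 9.43 CPM (0.45, -0.02 to 0.93).

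The share of Wnt-high cells among venous endothelial cells was 36.9% of 1376 (Clopper-Pearson 34.4% to 39.5%) in the wild-type and 45.6% of 1242 (42.8% to 48.4%) in the SP3-null library, 8.65 percentage points higher (4.83 to 12.5). Of all cells the class made up 11.4% and 14.3%, and Wnt-low VE made up 19.5% and 17.1%. The venous share of Wnt-high cells was 52.1% of 975 and 49.6% of 1140, a difference of -2.45 points whose interval of -6.78 to 1.89 held 0. Median depth in the class was 14475.5 and 19230 UMIs per cell, and in Wnt-low VE 14280.5 and 14460.5, and its part in the shares was not tested. Without cells holding 2 or more UMIs of markers of other cell types, a filter that kept 180 and 176 cells of the class, the difference was 4.20 points with an interval of -2.26 to 10.6 that held 0. Those markers include Nes, which embryonic endothelium also expresses. With Nes, Stmn2 and the globins left out of the markers, 493 and 543 cells were kept and the difference was 8.54 points. Nkd1 and other class genes differed between the libraries, so that the line between the classes need not lie at the same place in both.

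Of 8844 genes with at least 100 UMIs in the class, 57 were at least 1.5-fold higher in the SP3-null library (0.645%) and 147 at least 1.5-fold lower (1.66%), together 2.31%. The median log2 ratio was -0.03 and the central 95% of genes lay between -0.51 and 0.38. With TMM factors the split was 72 higher and 118 lower, and with DESeq2 size factors 70 and 119. Ratios in Wnt-low VE and Wnt-high AE are given beside those of the class, and as these classes come from the same 2 libraries they are no replicates.

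Vill was highest, at 3.23 CPM (28 UMIs) in the wild-type and 13.02 CPM (145 UMIs) in the SP3-null library, a log2 ratio of 2.01 (1.42 to 2.65). In Wnt-low VE the ratio was 1.88 and in Wnt-high AE 2.10, so the difference was shared by the neighbours. Slc2a3, a glucose transporter, stood at 3.57 and 12.3 CPM, a ratio of 1.78 (1.21 to 2.39), with 1.93 and 1.91 in the neighbours. Platr5, a long noncoding RNA, had 1.62 (1.14 to 2.13) and Gm10036 0.89 (0.70 to 1.07), again near the neighbours. Gm10036 and Gm10093 are predicted genes, and their counts are uncertain where copies share reads.

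Some high genes were less even over the classes. Car4, a carbonic anhydrase on the surface of capillary endothelium, stood at 4.73 and 13.7 CPM, a ratio of 1.54 (1.03 to 2.07). In Wnt-high AE its ratio was 1.91, and in Wnt-low VE, where it had 5 and 3 UMIs, -0.39 with an interval of -3.07 to 1.98. Ahnak, a large scaffold protein, had 1.20 in the class, 1.11 in Wnt-high AE and 0.21 in Wnt-low VE, and the difference from Wnt-low VE was 0.99 (0.40 to 1.61). The intervals of such differences left out 0 for 10.4% of the 8761 genes compared with Wnt-low VE and for 9.43% of the 8497 compared with Wnt-high AE. Fmo1, Timp2 (an inhibitor of metalloproteinases), Gm10093, Cyth4, Prr7 and Tmem252 had ratios between 0.98 and 1.49.

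Camk1, a calmodulin-dependent kinase, was lowest, at 8.88 CPM (77 UMIs) and 2.07 CPM (23 UMIs), a ratio of -2.10 (-2.84 to -1.42), with -1.53 and -1.73 in Wnt-low VE and Wnt-high AE. Ltc4s, the synthase of leukotriene C4, stood at 9.22 and 3.05 CPM, a ratio of -1.60 (-2.22 to -0.9996), beside -0.63 and -0.40. With the mean of the CPM of each cell it was -0.98, and without cells holding markers of other cell types -0.21. Eif3j2 had -1.37, which is uncertain because the gene is a near-identical copy of Eif3j1. Mgst1 (a microsomal glutathione transferase), Cpxm1, Snhg18, Arhgef17, Apobec3 (an antiviral cytidine deaminase), Sqor (which oxidises sulfide) and Plpp2 had ratios between -1.10 and -1.29. Dhrs4, a retinal reductase, stood at 35.2 and 16.0 CPM with -1.14 (-1.41 to -0.87), with differences of -0.49 (-0.85 to -0.12) from Wnt-low VE and -0.72 (-1.14 to -0.31) from Wnt-high AE. Eva1a had -1.19 in the class, -0.22 in Wnt-low VE and -0.42 in Wnt-high AE. Without cells holding markers of other cell types, ratios nearer to 0 were found for Platr5 (0.75), Tmem252 (0.29), Apobec3 (-0.34), Mgst1 (-0.47) and Eif3j2 (-0.56), and ratios further from 0 for Slc2a3 (4.36), Car4 (3.53), Fmo1 (2.33), Ahnak (1.85), Eva1a (-1.80) and Cpxm1 (-2.56). With Nes, Stmn2 and the globins left out of those markers, 0 of the 28 named genes, Ltc4s among them, left the counting interval. Platr5 was then at 1.59, Tmem252 at 0.98, Slc2a3 at 1.80 and Car4 at 1.55.

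**Figure D3:**
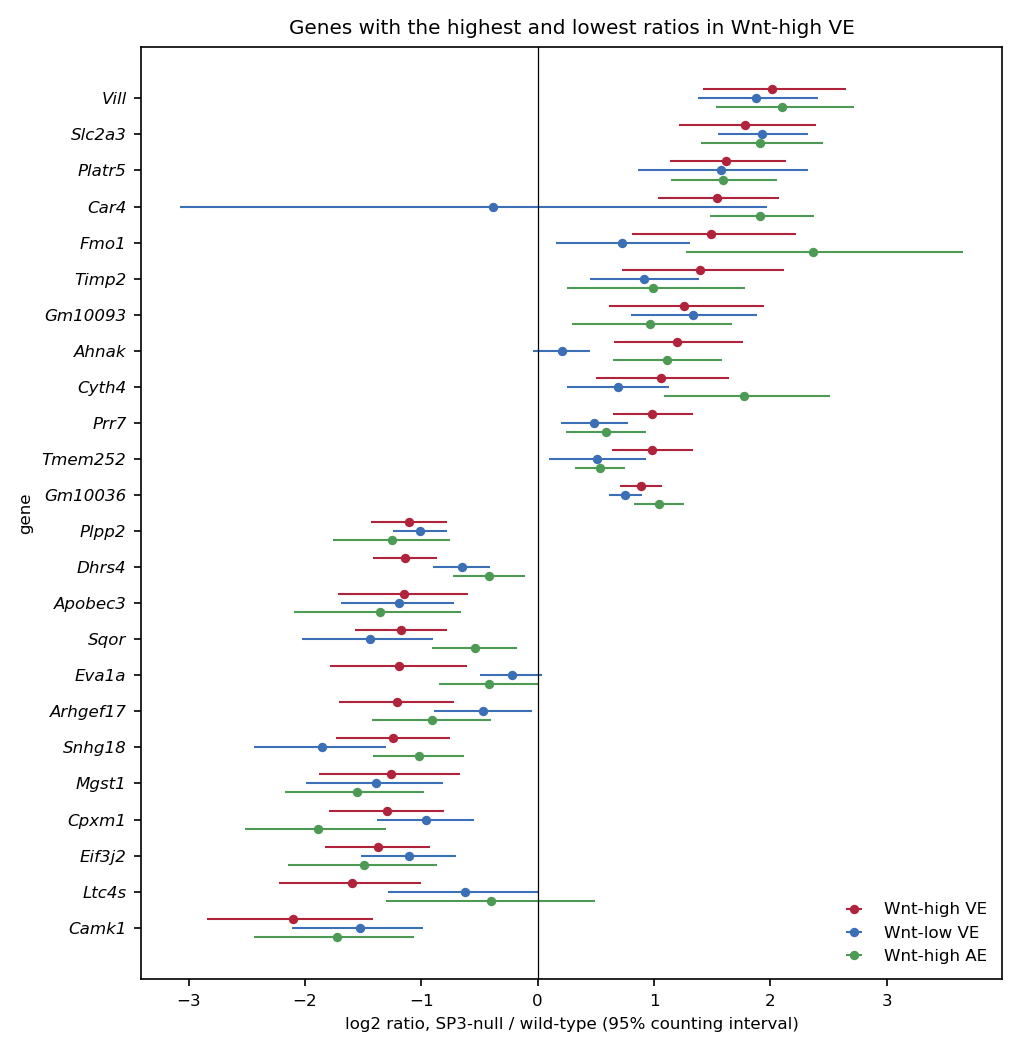
Log2 ratio of SP3-null to wild-type (horizontal axis) of the 12 highest and 12 lowest genes in Wnt-high VE, with 95% counting intervals, beside the same ratio in Wnt-low VE and Wnt-high AE. Ratios of Vill, Slc2a3, Platr5 and Camk1 were alike in the 3 classes, while Car4 in Wnt-low VE had an interval of -3.07 to 1.98 around 0 and Ltc4s was lowest in Wnt-high VE.

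The genes that set the class apart went both ways. Of the 99 genes at least 2-fold above Wnt-low VE, 47 were higher and 52 lower in SP3-null cells, where 42.7% and 57.3% of all genes were, and the median log2 ratio was -0.04 beside -0.03 over all genes. At least 1.5-fold higher were 4, Itm2a, Lpar1, Palmd and Pltp, and at least 1.5-fold lower were 3, Aqp11, Ccdc152 and Sqor, where 0.645% and 1.66% of all genes were. Palmd (palmdelphin) stood at 18.2 and 32.2 CPM, a ratio of 0.82 (0.55 to 1.10), against 0.17 in Wnt-low VE and 0.18 in Wnt-high AE. Itm2a, a membrane protein enriched in brain vessels, stood at 70.8 and 111 CPM, a ratio of 0.65 (0.51 to 0.79).

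The Wnt targets did not share a direction. Of 10 measured, 4 were above and 6 below 0, where 42.7% and 57.3% of all genes were, with a median of -0.07, and 0 passed 1.5-fold in either direction. Nkd1 was highest, at 0.49 (0.31 to 0.67), beside 0.53 in Wnt-high AE and 0.15 (-0.37 to 0.67) in Wnt-low VE. In the class it was 0.11 without the cells that held markers of other cell types, a filter that kept 180 and 176 cells. With Nes, Stmn2 and the globins left out of those markers, 493 and 543 cells were kept. The Nkd1 ratio then stayed inside its counting interval. Axin2 had 0.28 (-0.05 to 0.61), Tcf7 0.00 (-0.21 to 0.22), Tnfrsf19 -0.04 and Ccnd1, at 294 and 274 CPM, -0.10. Lef1 was lower by a small amount, at -0.13 (-0.24 to -0.01), Bambi, a pseudoreceptor that Wnt induces, had -0.19 and Spry4, an inhibitor of receptor tyrosine kinases, -0.48 (-0.92 to -0.03). Of 20 measured receptors and regulators, 8 were above and 12 below 0, with a median of -0.03. Lgr4, a receptor for R-spondins, had the highest ratio at 0.67 (-0.05 to 1.42) and Reck, which presents WNT7 ligands together with Adgra2, the lowest at -0.52 (-0.99 to -0.06).

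Of 16 measured barrier genes 12 were above and 4 below 0, where 42.7% and 57.3% of all genes were, with a median of 0.14. The median was -0.10 over the 12 genes measured without cells holding 2 or more UMIs of markers of other cell types. With Nes, Stmn2 and the globins left out of those markers, it was 0.14. At least 1.5-fold higher were 3, where 0.645% of all genes were. These were Car4, Itm2a and Abcb1a, an efflux pump, at 0.67 (-0.09 to 1.48). Foxq1 had 0.41 (0.22 to 0.60) and Slc2a1, at 227 and 276 CPM, 0.28 (0.20 to 0.36). The tight junction gene Cldn5 stood at 679 and 609 CPM, a ratio of -0.16 (-0.21 to -0.11), and Plvap at 370 and 301 CPM, -0.30 (-0.37 to -0.23), against -0.06 in Wnt-low VE. The median of the list was 0.16 in Wnt-low VE and 0.23 in Wnt-high AE.

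Among venous genes, Nr2f2 did not differ in level, with a ratio of 0.00 (-0.13 to 0.13), and all 5 genes of the venous score lay between -0.15 and 0.00. Over the longer venous list 4 of 14 measured genes were above and 10 below 0, with a median of -0.11. Of all genes 42.7% were above and 57.3% below 0, which also applies to the arterial counts that follow. Vwf (von Willebrand factor) was the highest, at 0.46 (-0.03 to 0.96). Of 11 measured arterial score genes 3 were above and 8 below 0, with a median of -0.08, and of 7 other arterial genes 1 was above and 6 below, with a median of -0.24. Gja4 stood at 33.6 and 16.8 CPM, a ratio of -0.999 (-1.27 to -0.73), against -0.55 in Wnt-low VE and -0.17 in Wnt-high AE. Unc5b, a netrin receptor of arterial and tip cells, had -0.70 (-1.16 to -0.25) and Efnb2 -0.33 (-0.53 to -0.14), while Jag2, a Notch ligand, had 0.37 (0.09 to 0.64) and Tm4sf1 0.42 (0.01 to 0.84).

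Hypoxia and glycolysis genes leaned upward. Of 15 measured hypoxia genes 13 were above 0, where 42.7% of all genes were, and the median was 0.26. For 9 of them the interval lay above 0, where 7.95% of all genes had such an interval. Higd1a stood at 176 and 207 CPM, Pdk1, which keeps pyruvate out of the mitochondria, at 35.4 and 51.2 CPM (0.53, 0.33 to 0.74), and Bnip3, a mitophagy receptor, at 10.3 and 15.3 CPM. Egln3, an oxygen sensor, was lowest at -0.11. Of 14 glycolysis genes 12 were above 0, where 42.7% of all genes were, with a median of 0.20. The median was 0.43 without cells holding markers of other cell types. With Nes, Stmn2 and the globins left out of those markers, it was 0.21. Ldha (lactate dehydrogenase) stood at 856 and 1089 CPM with 0.35 (0.31 to 0.39). Slc16a3, the lactate exporter, had 0.66 (0.45 to 0.87). Neighbouring classes showed similar medians, 0.34 and 0.38 for hypoxia and 0.19 and 0.23 for glycolysis in Wnt-low VE and Wnt-high AE.

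**Figure D4:**
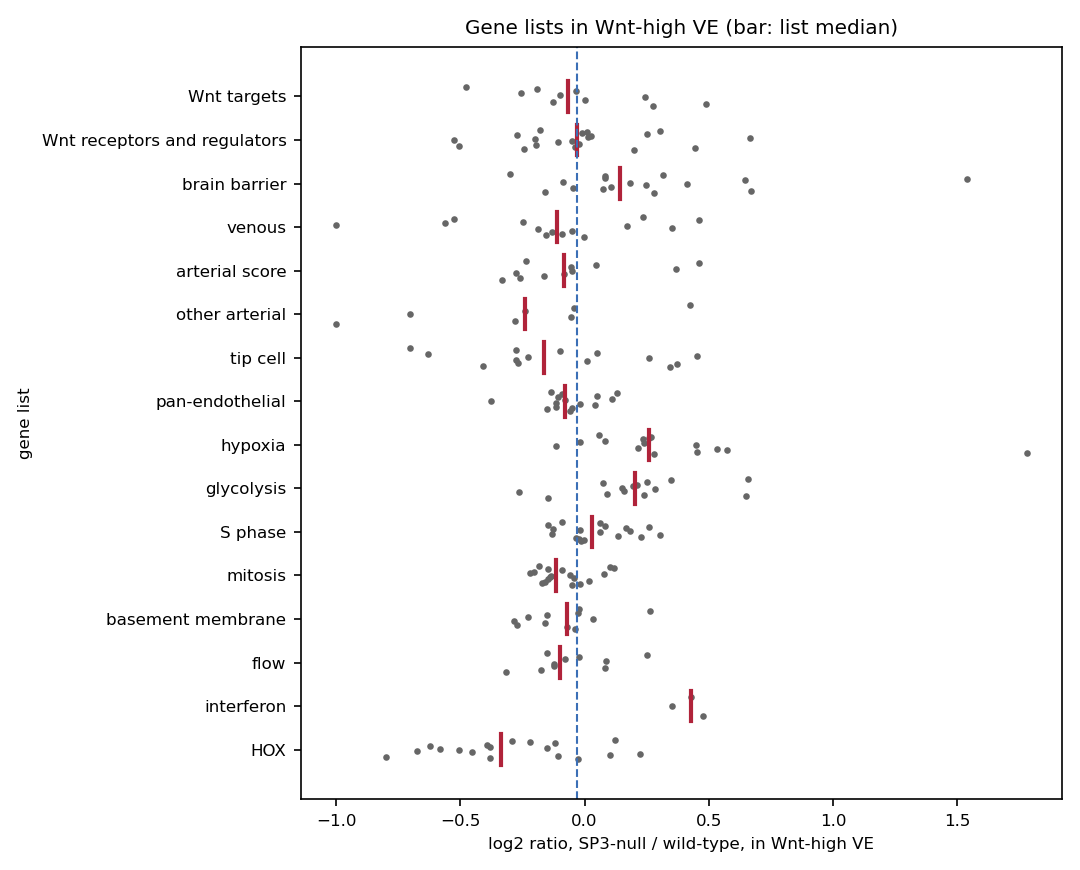
Log2 ratio of SP3-null to wild-type in Wnt-high VE (horizontal axis) for measured members of 16 gene lists, a grey point per gene, with the list median as a red bar and the median of all 8844 genes, -0.03, as a dashed line. Medians ranged from -0.34 for HOX genes to 0.43 for the 3 measured interferon genes, and the Wnt target median of -0.07 lay near the line.

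Other lists were examined after values had been seen. Of 18 measured HOX genes, which set position along the body axis, 15 were below and 3 above 0, where 57.3% and 42.7% of all genes were. Their median was -0.34, with 6 intervals below 0 where 12.6% of all genes had one. Hoxa9 stood at 26.6 and 16.7 CPM, a ratio of -0.67 (-0.96 to -0.39), and Hoxb9 at 23.6 and 15.8 CPM. The median was -0.20 in Wnt-low VE and -0.54 in Wnt-high AE. In the class it was -0.03 over the 9 genes measured without cells holding markers of other cell types. With Nes, Stmn2 and the globins left out of those markers, the HOX median in the class was -0.36. Cyp26b1, which degrades retinoic acid, stood at 60.7 and 43.2 CPM, a ratio of -0.49 (-0.67 to -0.31). Of 12 immediate early genes, whose transcripts also respond to dissociation, Egr1 had -0.99, Zfp36 -0.78 and Fos -0.50, while Jun had -0.02 and Hspa1a 0.33. Of 11 interferon genes 3 were measured, and Ifitm3 and Bst2, both antiviral membrane proteins, had ratios of 0.48 and 0.43.

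**Figure D5:**
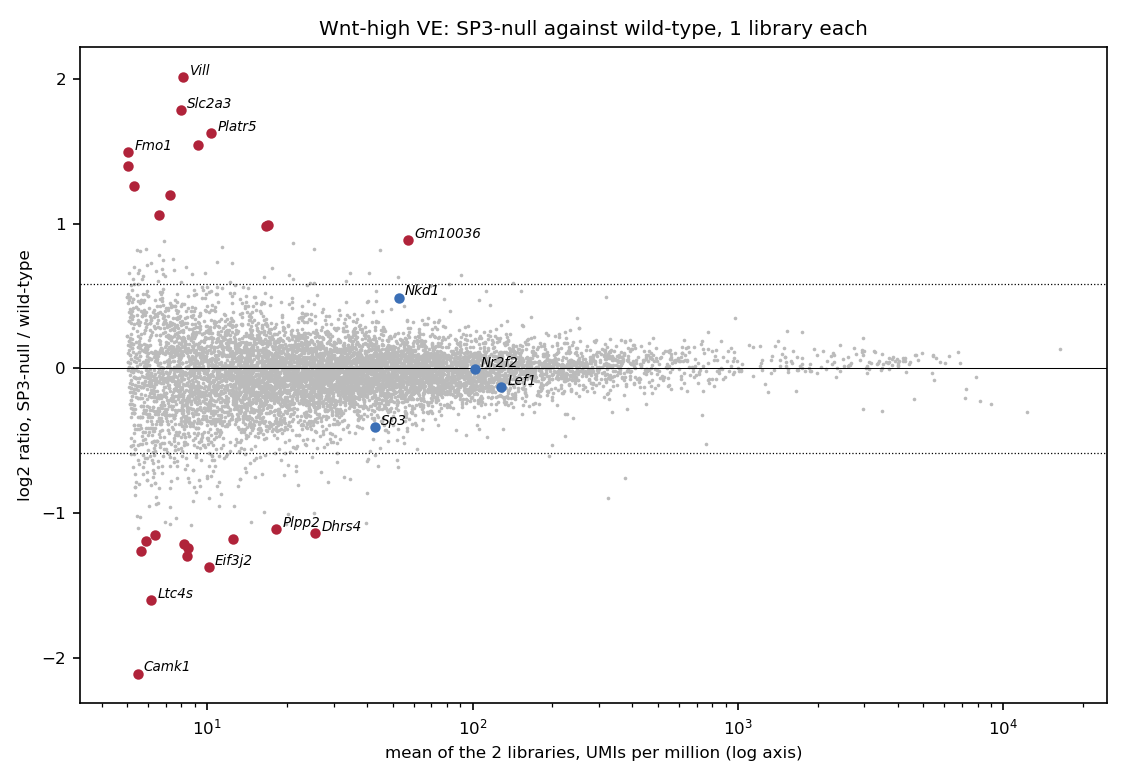
Log2 ratio of SP3-null to wild-type in Wnt-high VE (vertical axis) against the mean level of the 2 libraries in CPM (horizontal log axis), a point per gene with at least 100 UMIs and dotted lines at 1.5-fold. The 12 highest and 12 lowest genes are red and Nkd1, Lef1, Nr2f2 and Sp3 blue. All red genes but Gm10036 lay under 40 CPM, and Nr2f2 lay on the line of no difference.

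The motifs were also counted over the genes described. GGGCGG was found for 2 of 8 of the 12 highest genes and for 5 of 10 of the 12 lowest genes that had a promoter in the table, beside 72.9% of the 6990 genes measured in the class. Of the 74 genes above Wnt-low VE with a promoter, 70.3% had GGGCGG and 4.05% had CTTTGAT, beside 2.96% of the measured genes with CTTTGAT. With so few genes these shares are a description.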

How the data were processed

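The authors aligned reads with Cell Ranger (version not given in the sources used here) to mm10 (GRCm38), removed barcodes with fewer than 1000 UMIs or 1000 genes and contaminating types, and gave each cell the class of its 3 nearest reference cells, with venous and arterial cells told apart by a score over 5 venous and 13 arterial genes. Each cell has deposited whole-number counts (UMIs of each gene, not normalized) and a deposited mitochondrial fraction. Matrix sums lay 0.145% below the deposited totals, 2 other columns were not used, and 5 barcodes occurred in both libraries, 0 of them in the class. No doublet caller was run.

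Counts were summed per class and library and divided by their total (CPM, no pseudocount, except 1 CPM for likeness to Nkd1). CPM carry exact Poisson, ratios exact conditional and shares Clopper-Pearson intervals, and differences Newcombe intervals, at 95%. No test was possible on 1 library per genotype. Shares of cells used 5000 UMIs per cell, which left out 135 cells of the class. Members and lists were chosen with earlier results of these data known. Named were the 3 markers, Sp3, the 12 highest and 8 lowest genes per class contrast (100 UMIs in each library), the 12 highest and lowest SP3-null ratios (100 UMIs), list members (50 UMIs) with the most UMIs or extreme ratios, and the 5 genes most like Nkd1. Some genes that this rule names are not reported here. Other names, and the HOX, retinoid, nucleolus, serine and immediate early lists, were chosen after values were seen. Interval computation was tested on simulated data. Alternatives were other UMI minimums, edgeR 4.0.16 TMM and DESeq2 1.42.0 size factors, per-cell means, thinning and filters of cells. Python 3.11.15, numpy 2.4.6, scipy 1.17.1, pandas 2.3.3, matplotlib 3.10.9 and R 4.3.3 were used.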

Additional observations from a re-analysis of the deposited data

Results flagged for a closer look

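Of 309 genes named or listed, 11 had SP3-null to wild-type ratios with counting intervals on opposite sides of 0 in Wnt-high VE and in a neighbouring class. The difference was not tested over replicates. The share of such genes among all genes was not computed, and the opposite signs were not rechecked with other scaling factors. In Wnt-high VE the upper bound was -0.004 for Cdh5, -0.0002 for Cenpf and -0.001 for Col4a2, so these intervals barely left out 0. Against Wnt-low VE these were Bambi (log2 ratio -0.19 in Wnt-high VE, 0.11 in Wnt-low VE), Cdh5 (-0.060, 0.05), Cenpf (-0.093, 0.11), Kdr (-0.11, 0.06) and Nrp2 (-0.13, 0.12). Against Wnt-high AE they were Col4a2 (-0.072, 0.12), the globin Hba-x (-0.89, 0.98), the Notch target Hes1 (-0.24, 0.22), the neuronal gene Stmn2 (-0.71, 0.40) and the DNA synthesis genes Tyms (0.18, -0.36) and Ung (0.26, -0.60).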

How the results depend on the processing

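No paired analysis was possible because each genotype was 1 library, and no replicate could be left out. The count of 204 genes past 1.5-fold was 383 with the mean of the CPM of each cell, 105 with cells thinned to 5000 UMIs, 812 with a minimum of 20 UMIs and 36 with 400. The 99 genes 2-fold above Wnt-low VE were 178, 44 and 48, and the 16 genes above Wnt-high AE 35, 6 and 8, with minimums of 20 and 400 UMIs and with thinning. Per-cell means gave 26 genes above Wnt-high AE. Fewer UMIs or genes enter the thinned and stricter counts. The difference of Wnt-high shares was 4.20 points (-2.26 to 10.6) without cells holding 2 or more UMIs of markers of other cell types, a filter that left 180 and 176 cells of the class and whose effect has a cause that was not tested, and 2.90 points with all cells as the denominator. Leaving Nes, Stmn2 and the globins out of those markers, an alternative chosen after seeing the data, gave 8.54 points. It kept 493 and 543 cells of the class, and under it 0 of the 28 named genes left the counting interval. List medians ranged over the alternatives run from -0.18 to -0.02 for Wnt targets, from 0.19 to 0.50 for hypoxia and from -0.16 to -0.03 for venous genes. Of 224 values of 28 named genes under 8 alternatives, 25 left the counting interval, 13 of them under the marker filter, and 0 reversed. Genes with few UMIs, such as Camk1 and Vill, are limited by depth, and the barrier list median became -0.10 under the marker filter.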
